A study of Mus musculus with 20 samples.

Results

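Denervation and regeneration response genes are transcripts that are known to climb when a muscle fibre loses its nerve or is rebuilt after damage. The 9 genes described here are Chrng, Ncam1, Runx1, Gadd45a, Cdkn1a, Myl4, Tnnt2, Mustn1 and Ankrd1. They were chosen by name and are represented by every probe set that the platform annotation assigns to that gene alone, 27 probe sets in all, out of 34945 single-gene probe sets for 18193 genes. A probe set is a group of short oligonucleotides on the array that together report on 1 transcript. The tissue was the gastrocnemius, a calf muscle, of mice that received JA16 or saline. JA16 is an antibody against myostatin, a protein that muscle secretes and that restrains its growth. Injections went into the peritoneum, and JA16 was dosed at 0.12 mg per g body weight on day 1 and 0.09 mg per g on day 3, and muscle was taken on day 5. Each group had 10 samples, 1 array per sample. The labels state no strain, sex, age or genotype, and they do not say that each sample came from its own mouse, so p-values measure the spread between these samples, which may be technical.

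When motor nerve contact is lost, muscle nuclei along the whole fibre return to a gene programme used before innervation. They make the fetal acetylcholine receptor with its gamma subunit, the adhesion molecule NCAM and the transcription factor Runx1, together with the growth arrest proteins Gadd45a and p21. After injury, macrophages enter, satellite cells (the resident stem cells) divide and fuse, and new fibres first use embryonic myosins, light chains and troponins before adult forms replace them. The titin-bound ankyrin repeat protein encoded by Ankrd1 and the small nuclear protein encoded by Mustn1 are induced by mechanical load and during repair. Several of these transcripts are restricted in intact adult muscle to small regions such as the junction. In these saline samples the brightest probe sets of Chrng and Runx1 were low, except in replicate 7, where they were at 505 and 572. Mustn1, Myl4, Cdkn1a and Gadd45a had mean saline intensities of 3340, 1889, 1861 and 1145, with replicate 7 included.

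Values are MAS5 intensities, linear brightness values with 1 per probe set and array. Array medians ran from 38.9 to 77.1, and the highest was that of saline replicate 7. A gene entered the test if a probe set had a mean log2 intensity of at least 5.65 (an intensity of 50.1) over all samples, and its brightest probe set stood for it. Of the 27 probe sets, 14 met this, and 8 of the 9 genes were among the 11200 tested; Chrng was not. The labels do not say what same-numbered samples share, and pairing was judged from the values. Same-numbered samples of both groups varied together (correlations of 0.377 to 0.786 in the 10 pairs), so a fit that blocks on the number stands beside the plain one. The 3' to 5' signal ratio of the beta-actin controls, a sign of RNA length, ran from 1.33 to 1.84 (log2) over the first 6 replicate numbers and from 0.48 to 0.64 over numbers 7 to 10, whichever the treatment. These 2 blocks of replicates are called array sets here. Same-numbered samples always lie in the same array set, so their correlation cannot tell a true pair from a shared array set. Markers of adult skeletal muscle fibres such as Ckm, Acta1 and Myh4 were bright in every sample, with a summed intensity of 182500 to 234600 in saline and 186000 to 274300 in JA16 samples. Saline replicate 7 stood apart from all other samples in many of the genes described here, and the treatment difference of each of the 9 genes is given with and without it.

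After adjustment none of the 8 tested genes was below 0.05 in limma, either without the block (0.0357% of all genes passed) or with it (0.277% passed). At an unadjusted p under 0.05 there was 1 gene without the block, Ncam1, where 2.65% of all genes had such a p, and 3 with it, Gadd45a, Ncam1 and Tnnt2, where 16.2% had. The JA16 sample was the lower in at least 7 of 10 pairs for 4 of the 8 genes (Runx1, Ncam1, Myl4 and Tnnt2), against 24.3% of all genes. A lower mean in JA16 was found for 6 of the 8 genes, against 54.2% of all genes, and for 5 of 8 against 53.8% when saline replicate 7 was left out. The median log2 difference of the 8 genes was -0.32 with all samples and -0.17 without saline replicate 7, while that of all genes was -0.016 and -0.014. Each list median given below includes genes that did not pass any threshold.

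**Figure D1:**
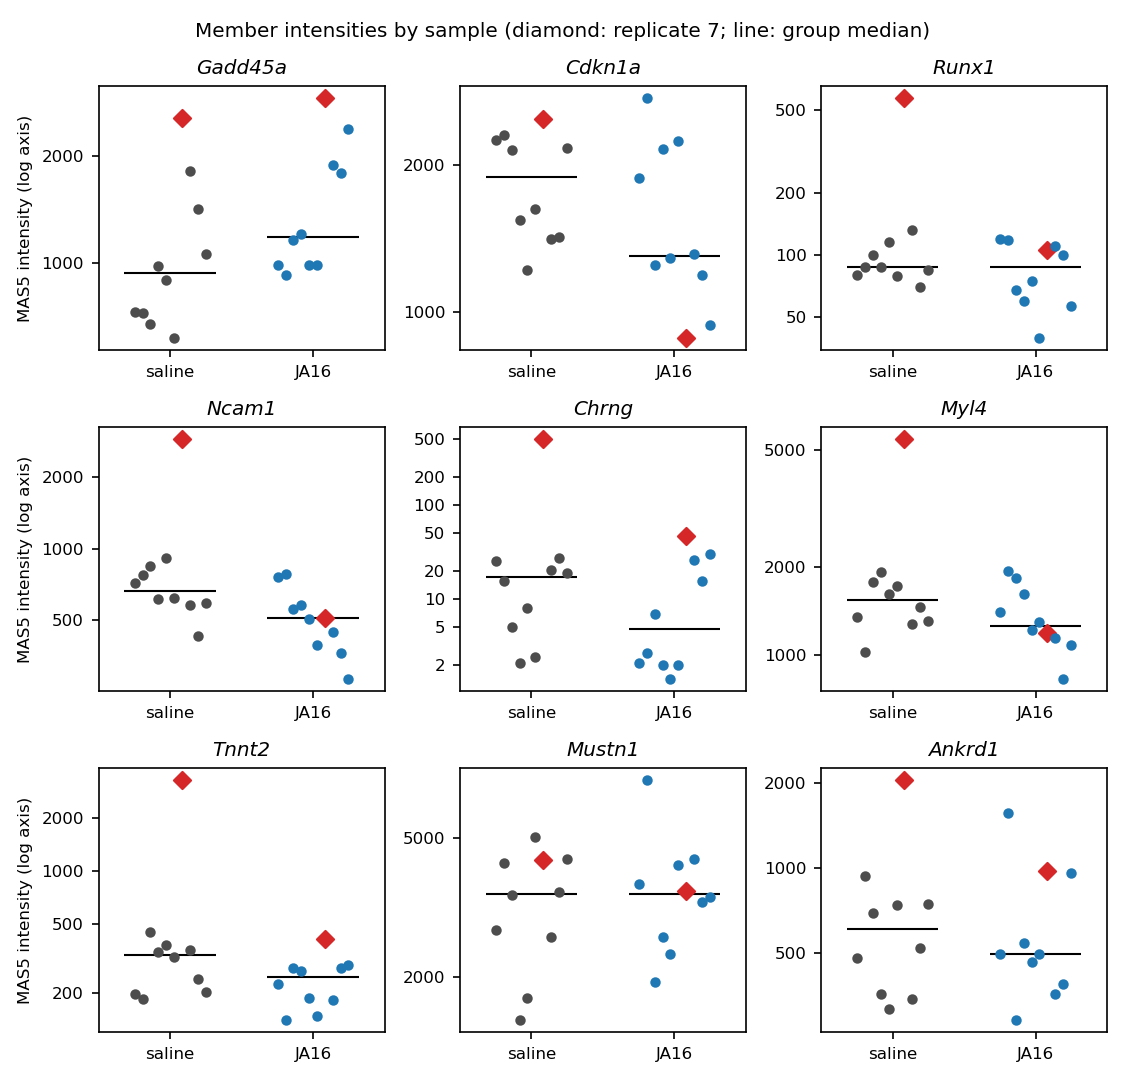
MAS5 intensity of each of the 9 genes (brightest probe set, log axis) in the 10 saline and 10 JA16 samples, with a line at the group median and a diamond for replicate 7. Saline replicate 7 is the highest of all 20 samples for Runx1, Ncam1, Chrng, Myl4, Tnnt2 and Ankrd1, and not for Gadd45a, Cdkn1a or Mustn1.

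Chrng encodes the gamma subunit of the acetylcholine receptor, which the epsilon subunit (Chrne) replaces when the junction matures. Its brightest probe set was at 505 in saline replicate 7, at 2.1 to 27.1 (median 15.5) in the other 9 saline samples and at 1.4 to 47.3 (median 4.85) in JA16 samples. Saline replicate 7 was thus the only sample of the 20 above the filter level of 50.1, and the second highest was its same-numbered JA16 partner at 47.3. The other probe sets of the gene were at 10.0 and 146.5 in saline replicate 7, against at most 4.7 and 7.6 in the other saline samples. On the first of these JA16 replicates 3 and 10 were higher still, at 21.8 and 15.1. Apart from saline replicate 7 the values lie at the bottom of the scale, and the log2 difference of -1.17 (SE 0.85, limma over all single-gene probe sets, adjusted p = 1.0) carries that limit. Among JA16 samples, replicates 1 to 6 were at 1.4 to 7.0 and the other 4 at 15.7 to 47.3, without overlap. With 16 added to each intensity it was -0.52, and without saline replicate 7, with nothing added, it was -0.60 (SE 0.73). The other probe sets did not share this sign throughout: their differences were 0.29 and -0.033 with all samples and 0.51 and 0.64 without saline replicate 7.

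The other receptor subunits allow the same comparison. Chrnd, the delta subunit, was at 57.7 in saline replicate 7, 2.4 to 31.8 in the other saline samples and at most 19.3 in JA16 samples. This gene was below the filter. Chrna1, the alpha subunit, was at 2574 in saline replicate 7 against 407 to 1662 in the other saline and 341 to 1532 in JA16 samples. Chrnb1, the beta subunit, was also highest there, at 2096 against 1064 to 1914 and 1218 to 2094, a narrow gap. The adult subunit Chrne went the other way, with its lowest value of the 20 samples, 301, in saline replicate 7, against 304 to 730 in the other saline samples. The mean of Chrne was 451 ± 130 (SD, n = 10) under saline and 571 ± 123 (n = 10) under JA16, with a log2 difference of 0.36 (SE 0.17, limma adjusted p = 1.0) that did not pass (0.30 without saline replicate 7). Chrna1, Chrnb1 and Chrnd were chosen for this account after their values were seen.

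Ncam1 encodes the neural cell adhesion molecule, which covers denervated and regenerating fibres and also marks satellite cells, nerve terminals and Schwann cells without myelin. Its intensity was 428 to 2904 (median 667) in saline and 282 to 782 (median 509) in JA16 samples. The highest value, 2904, was that of saline replicate 7, and the next was 918 in another saline sample, so that the ranges overlapped over most of the JA16 values. Ncam1 was lower in JA16 in 8 of 10 pairs, as were 10.7% of all genes in at least 8 pairs. The log2 difference was -0.63 (SE 0.26, limma adjusted p = 1.0; with the block SE 0.20, adjusted p = 0.191). Without saline replicate 7 it was -0.42 (SE 0.19), and with the block and without pair 7 it was -0.42 (SE 0.12, adjusted p = 0.226), with 7 of 9 pairs lower (14.9% of all genes were lower in at least 7 of these 9). That last fit called 0.125% of all genes. All 4 probe sets at or above the filter were lower in JA16, between -0.63 and -0.12, but without saline replicate 7 the probe set at -0.12 was at 0.051. The brightest probe set is one whose name marks a match to several transcripts. With such probe sets left out, the gene was represented by a dimmer one at -0.27 (SE 0.32), which was at -0.047 without saline replicate 7, and the mean of the probe sets gave -0.38. JA16 replicate 10 was far below the rest of its group on the second probe set, at 122, where the other JA16 samples were at 235 to 447.

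Markers of nerve and Schwann cells, with and without myelin, were compared between the groups as well. JA16 means were below saline means for all 8 tested genes of that list, whose median was -0.55, against -0.54 without saline replicate 7. The summed intensity of the list ran from 10140 to 19580 in saline and from 6973 to 19050 in JA16 samples. Drp2, a dystrophin-related protein of myelinating Schwann cells, was at -0.79 (SE 0.23; -0.84 without saline replicate 7) and the receptor gene Erbb3 at -0.51 (SE 0.16; -0.44), and none passed in either fit. Gfap, Ngfr, Cdh19 and Mag were below the filter. In saline replicate 7 the summed intensity of the nerve list was 10140, the lowest of the saline group. The largest values in this sum were those of the myelin genes Pmp22 (6416) and Mbp (1899). Erbb3 was at its highest there, at 612, and Cdh19 was at 116, within the 4.4 to 116.8 of the other saline samples. The part of nerve cells in the Ncam1 difference was not tested. In whole muscle, fewer cells of a type and less RNA per cell cannot be told apart.

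Runx1 encodes a DNA-binding factor that is induced by loss of the nerve and limits fibre wasting, and it is also active in leukocytes. Its brightest probe set was at 572 in saline replicate 7, at 70.0 to 132 (median 87.2) in the other saline samples and at 39.6 to 120 (median 87.2) in JA16 samples. Apart from that 1 sample the ranges overlapped in part: 4 JA16 samples were below the lowest saline value, and saline replicate 8, at 132, was above the highest JA16 value. The log2 difference of -0.45 (SE 0.31, limma adjusted p = 1.0) became -0.18 (SE 0.21) without saline replicate 7. The remaining 5 probe sets of Runx1 were below the filter, and their differences had both signs, from -0.46 to 0.72. Of these, 2 also stood out in saline replicate 7, at 412 (other saline samples 28.2 to 67.7) and at 260 (28.1 to 53.6). Its partner subunit Cbfb was at 5793 in saline replicate 7, within the 5571 to 7703 of the other saline samples.

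Gadd45a, a growth arrest and DNA damage protein that is induced in denervated and fasted muscle, was the only one of the 9 genes whose brightest probe set differed in 1 direction in every pair. Its intensity was 722, 717, 668, 979, 891, 610, 2574, 1816, 1421 and 1056 in saline replicates 1 to 10. In JA16 replicates 1 to 10 it was 985, 924, 1156, 1203, 981, 982, 2925, 1884, 1798 and 2383. The ranges overlapped, but each JA16 sample was above the saline sample of the same number, which was the case in all 10 pairs for 0.58% of all genes. The log2 difference was 0.45 (SE 0.27, limma adjusted p = 1.0) without the block. With the block the SE was 0.10 and the unadjusted p 0.000508, but the adjusted p of 0.0903 missed the threshold. The difference was 0.43 (SE 0.13, limma adjusted p = 0.367) with the actin ratio added to the block. Without pair 7 the blocked value was 0.48 (SE 0.11, adjusted p = 0.116), and without saline replicate 7 alone the value was 0.60 (SE 0.25).

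The levels of Gadd45a also differed between the array sets. In saline samples it ran from 610 to 979 over replicates 1 to 6 and from 1056 to 2574 over the other 4. The JA16 samples ran from 924 to 1203 and from 1798 to 2925. Within each group replicates 7 to 10 thus all lay above replicates 1 to 6. Such a separation in this direction held for 6.68% of all genes and for no other tested gene of the 9. The treatment difference was alike in size in both sets, with blocked values of 0.46 (SE 0.11) for replicates 1 to 6 and of 0.44 (SE 0.19) for the others. The difference between the sets was -0.017 (SE 0.21, limma interaction adjusted p = 1.0). The part of RNA length in the level of Gadd45a was not tested. Of its family, Gadd45g had means of 2776 ± 705 (SD, n = 10) under saline and 3596 ± 1260 under JA16 (log2 difference 0.34, SE 0.18, adjusted p = 1.0; 0.38 without saline replicate 7). Gadd45b had a log2 difference of -0.071 (SE 0.23).

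Cdkn1a encodes p21, an inhibitor of cyclin-dependent kinases that is induced by p53, by denervation and when myoblasts leave the cell cycle. Its intensity was 1222 to 2487 (median 1890) in saline and 883 to 2751 (median 1305) in JA16 samples, with overlap over most of the range. It was lower in JA16 in 6 of 10 pairs, with a log2 difference of -0.28 (SE 0.20, limma adjusted p = 1.0), and its second probe set was at -0.31 (SE 0.17). Without saline replicate 7 the difference was -0.23 (SE 0.21). With the block it was -0.15 (SE 0.15) without pair 7, -0.18 without pair 10, and -0.51 (SE 0.19, adjusted p = 0.443) with the actin ratio as a covariate. The values differed by array set. In replicates 1 to 6 it was 0.0401 (SE 0.15, with the block), with saline samples at 1222 to 2310 and JA16 samples at 1251 to 2751. In replicates 7 to 10 it was -0.76 (SE 0.23), with saline samples at 1412 to 2487 and JA16 samples at 883 to 1316.5, which did not overlap. The difference between the array sets was -0.81 (SE 0.30), with an unadjusted p of 0.0185 in limma and an adjusted p of 1.0. In replicates 7 to 10 alone, Gadd45a had the opposite sign, at 0.44 (SE 0.19). Neither gene passed there (limma with the block, adjusted p = 0.671 for Cdkn1a and 0.693 for Gadd45a). Both genes are known targets of p53, whose part was not tested.

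**Figure D2:**
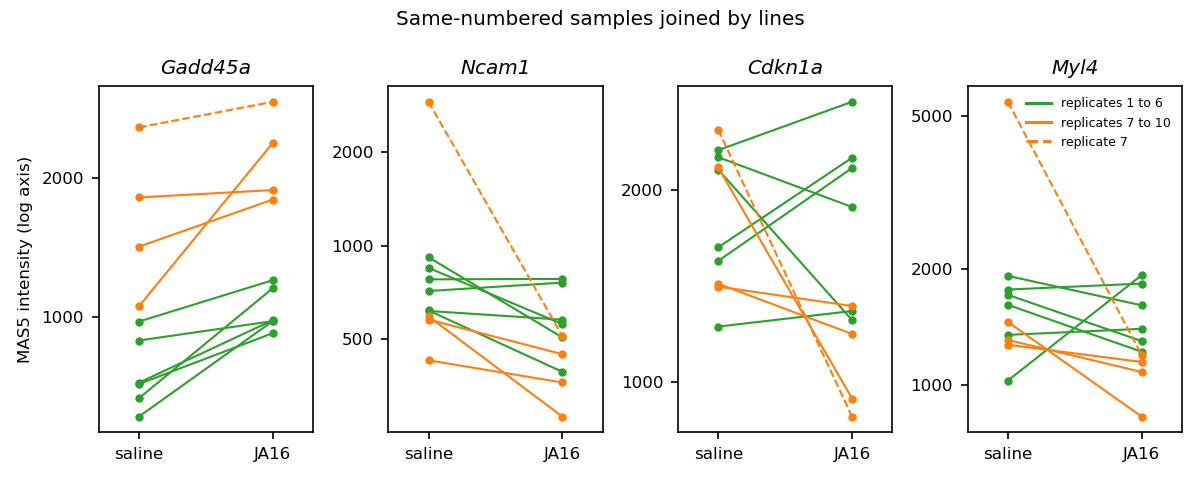
MAS5 intensity (log axis) of Gadd45a, Ncam1, Cdkn1a and Myl4 in saline and JA16 samples, with same-numbered samples joined, replicates 1 to 6 in green, replicates 7 to 10 in orange and replicate 7 dashed. All 10 Gadd45a lines go up, and for Cdkn1a and Myl4 the 4 orange lines go down while the green lines go both ways.

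Myl4 encodes the embryonic and atrial essential light chain of myosin, and Tnnt2 the cardiac form of troponin T, both used by developing and regenerating skeletal muscle. The 250 bases upstream of an annotated start of Chrng, Tnnt2, Myl4 and Ankrd1 are shown. These 4 genes belong to different protein families and were all highest in saline replicate 7. Runx1 and Ncam1 were also highest there and are not shown, and no window was found for Ncam1. The windows shown are from RefSeq (GRCm38.p6), on the strand of the gene, 5′ to 3′. Capitals mark the E-box letters CANNTG, the kind of site that MyoD and myogenin bind, and the letters CATTCC or its reverse complement, the M-CAT kind of site that TEAD factors bind.
Chrng (chr1:87205561-87205810, + strand): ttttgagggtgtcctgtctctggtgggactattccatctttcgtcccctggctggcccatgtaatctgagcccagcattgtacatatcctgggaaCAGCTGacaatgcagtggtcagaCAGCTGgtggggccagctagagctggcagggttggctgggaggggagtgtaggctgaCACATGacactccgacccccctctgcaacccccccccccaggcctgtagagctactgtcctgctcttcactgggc
Tnnt2 (chr1:135836084-135836333, + strand): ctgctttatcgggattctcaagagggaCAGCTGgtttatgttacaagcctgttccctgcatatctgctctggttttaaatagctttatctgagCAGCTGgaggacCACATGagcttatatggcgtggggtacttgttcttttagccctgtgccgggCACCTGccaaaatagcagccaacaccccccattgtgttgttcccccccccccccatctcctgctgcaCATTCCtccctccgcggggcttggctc
Myl4 (chr11:104550413-104550662, + strand): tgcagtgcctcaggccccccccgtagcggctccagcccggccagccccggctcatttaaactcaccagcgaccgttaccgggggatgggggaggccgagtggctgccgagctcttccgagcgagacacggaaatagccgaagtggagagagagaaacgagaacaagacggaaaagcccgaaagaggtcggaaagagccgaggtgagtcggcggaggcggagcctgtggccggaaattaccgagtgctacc
Ankrd1 (chr19:36119845-36120094, - strand): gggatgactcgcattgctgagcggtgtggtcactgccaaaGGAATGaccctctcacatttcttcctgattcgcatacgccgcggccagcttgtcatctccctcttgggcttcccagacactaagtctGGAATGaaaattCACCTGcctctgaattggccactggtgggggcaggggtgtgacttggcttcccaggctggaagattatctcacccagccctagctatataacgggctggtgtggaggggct

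CANNTG reads the same on both strands, CATTCC was searched on both, and the marked sites of these patterns do not overlap each other. The Chrng window holds 3 matches to CANNTG and the Tnnt2 window 4, where 66.2% of 32851 upstream windows of this length hold at least 1 and 12.2% hold 3 or more. CAGCTG is 1 form of CANNTG. In both genes 2 of the matches read CAGCTG, which 1.26% of windows hold 2 or more times. The Tnnt2 window has 1 match to CATTCC, 27 bases before the start, and the Ankrd1 window has 2, against 12.6% of windows with at least 1 and 1.02% with 2 or more. The Myl4 window has no match to either pattern. For Tnnt2 a second annotated start has 1 CANNTG match. Of the windows not shown, the first Runx1 start has 3 matches to CANNTG and the second 1 to CATTCC, while Gadd45a and the second Cdkn1a start have 1 CANNTG each and Mustn1 has no match. Upstream windows were found for 8 of the 9 genes, and these matches describe the letters and not the use of a site.

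Myl4 was at 5448 in saline replicate 7, at 1027 to 1922 (median 1459) in the other saline samples and at 828 to 1932 (median 1260) in JA16 samples. Apart from that sample the ranges were nearly the same. The log2 difference of -0.35 (SE 0.23, limma adjusted p = 1.0) became -0.16 (SE 0.16) without saline replicate 7. As for Cdkn1a, the array sets differed in value: the blocked value was -0.0074 (SE 0.16) for replicates 1 to 6 and -0.86 (SE 0.29) for the other 4. In replicates 7 to 10 the JA16 samples, at 828 to 1195, all lay below the saline samples, at 1273 to 5448. Such a separation was found for 2 of the 8 genes, Cdkn1a and Myl4, and for 1.31% of all genes. The difference between the sets was -0.85 (SE 0.36), with an unadjusted p of 0.0328 and an adjusted p of 1.0 in limma. An unadjusted p under 0.05 for this difference was found for 2.68% of all genes, and 0 genes passed after adjustment.

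Tnnt2 was at 3298 in saline replicate 7, at 186 to 449 (median 321) in the other saline samples and at 140 to 408 (median 247) in JA16 samples. The highest JA16 value, 408, was that of replicate 7. The log2 difference was -0.66 (SE 0.38, limma adjusted p = 1.0; with the block SE 0.26, adjusted p = 0.242) with all samples. It was -0.31 (SE 0.22) without saline replicate 7 and -0.40 (SE 0.17, adjusted p = 0.325) with the block and without pair 7. The brightest probe set was lower in JA16 in 7 of 10 pairs, and its name marks a match to several transcripts. A second probe set, whose name marks possible cross-matches to other transcripts, was lower in all 10 pairs. Of all genes, 10.7% were lower in at least 8 pairs. With both kinds of probe set left out, Tnnt2 was not tested. The second probe set was at -0.79 (blocked SE 0.25, limma adjusted p = 0.273 over all single-gene probe sets). Its values were 87.8 to 1761 in saline and 46.2 to 209 in JA16 samples, and without saline replicate 7 its difference was -0.41 (SE 0.25). The adult troponin T genes were at 0.050 (SE 0.081) for Tnnt3, the fast form, and at -0.83 (SE 0.55) for Tnnt1, the slow form. In saline replicate 7 both lay within the range of the other saline samples, at 18581 and 5372.

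Ankrd1, whose product CARP sits on titin at the I-band and also enters the nucleus, was at 316 to 2056 (median 606) in saline and 288 to 1574 (median 496) in JA16 samples. The highest saline value was again that of replicate 7, and the next was 937. JA16 replicate 2, at 1574, was the second highest of all samples. The log2 difference was -0.097 (SE 0.33, limma adjusted p = 1.0) and turned to 0.098 (SE 0.29) without saline replicate 7. Its other probe set was at -0.096 and at 0.20 in the same comparison. The related genes Ankrd2 and Ankrd23 were at 2347 and 9764 in saline replicate 7, against 1734 to 5603 and 9518 to 15441 in the other saline samples, so that Ankrd1 alone of the 3 was high there.

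Mustn1 encodes a small nuclear protein of musculoskeletal cells that is induced in regenerating muscle and bone. It was at 1502 to 5030 (median 3461) in saline and 1939 to 7301 (median 3452) in JA16 samples, and was higher in JA16 in 5 of 10 pairs. The log2 difference was 0.13 (SE 0.23, limma adjusted p = 1.0), and 0.19 (SE 0.24) without saline replicate 7. Single samples moved it more, to 0.0124 without JA16 replicate 2, 0.0164 without saline replicate 4, 0.0405 without saline replicate 5, 0.21 without saline replicate 6 and 0.225 without JA16 replicate 3. Saline replicate 7, at 4305, was an ordinary sample for this gene, the fifth highest of 20. The highest value, 7301, was that of JA16 replicate 2, the sample that was also high for Ankrd1.

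**Figure D3:**
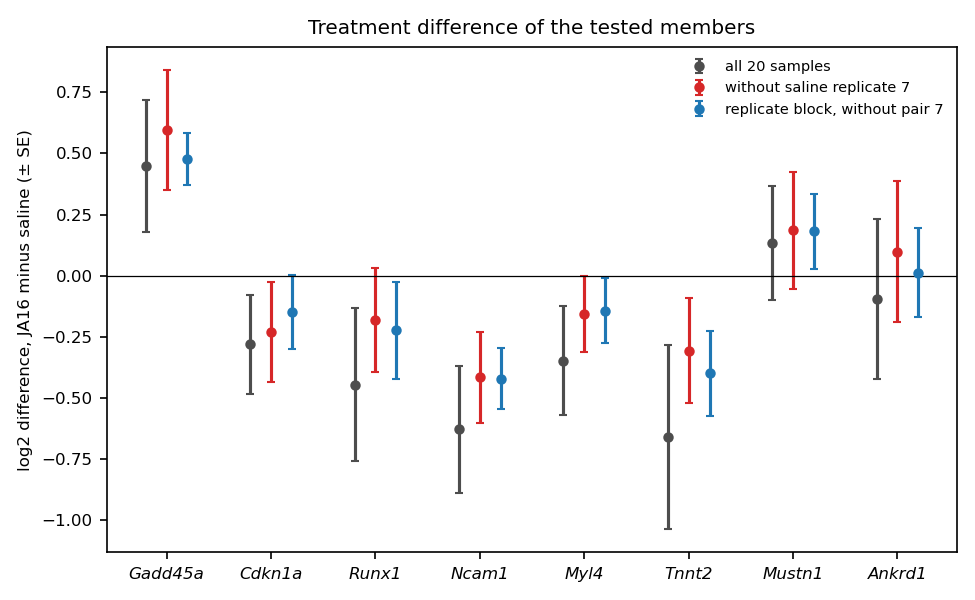
Log2 difference, JA16 minus saline, with its SE for the 8 tested genes, with all 20 samples, without saline replicate 7, and with the replicate block and without pair 7. Runx1, Ncam1, Myl4 and Tnnt2 lie nearer to 0 without saline replicate 7, Ankrd1 crosses 0, and Gadd45a is above 0 in all 3 settings.

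Saline replicate 7 was the highest of all 20 samples for 5 of the 8 tested genes and over 2-fold above the median of the other saline samples for 6. Over all genes these shares were 13.2% and 12.7%. Among the other 19 samples the share of genes over 2-fold above the rest of the group ran from 0.464% to 9.33%, the highest being that of its JA16 partner, replicate 7. By the count of genes highest of all 20, JA16 replicate 8, at 17.2%, was above it. The ratio to the median of the other saline samples was 10.3 for Tnnt2, 6.56 for Runx1, 4.69 for Ncam1, 3.95 for Ankrd1, 3.73 for Myl4, 2.89 for Gadd45a, 1.53 for Cdkn1a and 1.26 for Mustn1. For Gadd45a it was second to its JA16 partner, at 2574 against 2925. These are the values of 1 array and have no replicate.

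Other genes of developing and regenerating muscle show how far this went in the same sample, and those named here were chosen after their values were seen. Myh3, the embryonic myosin heavy chain, was at 3878 in saline replicate 7 against 45.1 to 123 in the other saline samples and 69.1 to 283 in JA16 samples, 37.3 times the saline median. Myh8, the perinatal form, was at 416 against 36.3 to 78.3. The fusion proteins myomaker (Mymk) and myomixer (Mymx), which join myoblasts into fibres, were at 684 and 2435 against at most 51.3 and 98.9 in the other saline samples. The myogenic factor gene Myog was at 2132 against 152 to 532, and Mest and Igf2, imprinted growth genes of immature muscle, were at 1251 and 1754 against at most 416 and 903. In contrast the satellite cell factor genes Pax7 and Myf5 lay within the range of the other saline samples, at 214.5 and 287. So did Myod1 at 1535 and Actc1 at 8509. Other genes of the embryonic list lay below that range. Xirp1 was at 1988 against 2719 to 5122, Myf6 at 5126 against 5155 to 6954 and Tnnc1 at 7978.5 against 8860.5 to 17462.5. Of the 20 tested genes of the embryonic list 6 were highest in this sample and 6 were over 2-fold up. For the 20 tested denervation-responsive genes these counts were 4 and 4. Over all genes the shares were 13.2% and 12.7%. The medians of the 2 lists were 0.091 and 0.028 (log2) above the other saline samples, and that of all genes was 0.037. Junction genes such as Musk (447), Dok7 (238) and Ache (299) and the ubiquitin ligase gene Trim63 (4870) were within the range of the other saline samples, and Lrp4, at 495, was the lowest of all 20.

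Markers of some other cells differed in this sample as well. Of 12 tested macrophage and leukocyte markers 7 were highest in saline replicate 7, against 13.2% of all genes. Over 2-fold above the other saline samples were 10 of them, against 12.7% of all genes. Adgre1, the macrophage surface gene F4/80, was at 1591 against 84.8 to 299, Cd68 at 2025 against 183 to 545 and Mrc1 at 4055 against 502 to 934. The summed intensity of the list was 41290 there, 11270 to 30750 in the other saline samples and 9221 to 38710 in JA16 samples. Itgam and Cd3e were below the filter. Fibroblast and tendon markers were highest there for 7 of 12, against 13.2% of all genes. Of these 12 markers 3 were over 2-fold up, against 12.7% of all genes. Their summed intensity was 69420 there, 38310 to 65970 in the other saline samples and 25910 to 68200 in JA16 samples. Lum, a matrix proteoglycan gene, was at 1913 against 340 to 826. Fmod, at 9201, and Scx, at 187, lay within the range of the other saline samples. Of 9 tested satellite cell markers 3 were over 2-fold up, namely Vcam1, Cxcr4 and Megf10, and 1, Megf10, was highest of all 20. Vcam1, at 848, and Cxcr4, at 2393, were below the highest JA16 values of 908 and 3158. The summed intensity of that list was 10220 there, 6866 to 10190 in the other saline samples and 6281 to 12240 in JA16 samples. All 10 adult fibre markers were below the saline median in this sample, with a median log2 ratio of -0.29. The cardiac list had 5 of 6 genes below the filter, Myh6 and Nppa among them. The part of these cells in the values of Runx1, Ncam1 and the other genes was not tested.

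**Figure D4:**
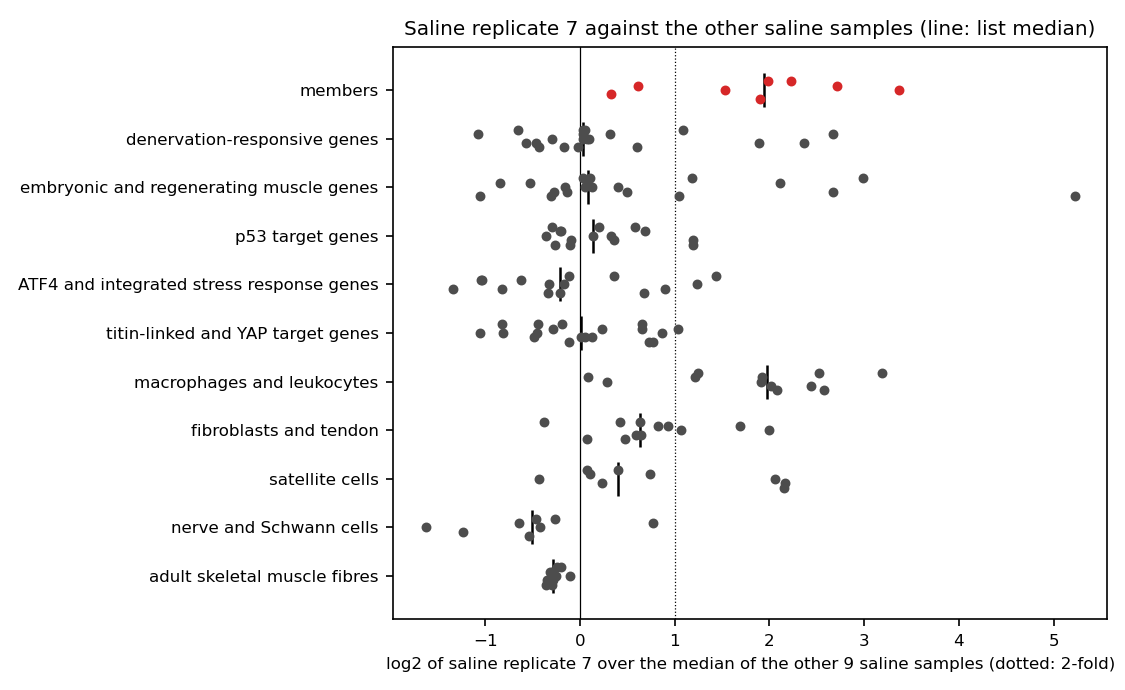
Log2 ratio of saline replicate 7 to the median of the other 9 saline samples for each tested gene of 11 lists, with a line at the list median and a dotted line at 2-fold. The described genes (red, median 1.94) and the macrophage and leukocyte markers (median 1.97) lie to the right, and the adult fibre markers (median -0.29) lie close together below 0.

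Lists of related genes were then compared between JA16 and saline. Of 95 tested genes in 6 lists, the 9 genes left out, 0 passed without the block in limma (7 had an unadjusted p under 0.05) and 1, Actc1, passed with it (19 had an unadjusted p under 0.05). Among 20 denervation-responsive genes 8 were higher and 12 lower, with a median of -0.066. Fbxo32, the ubiquitin ligase atrogin-1, had the smallest p, with means of 6468 ± 1727 (SD, n = 10) under saline and 4309 ± 1032 under JA16 (log2 difference -0.59, SE 0.16, adjusted p = 0.829, blocked adjusted p = 0.0579). Among 20 embryonic and regenerating muscle genes 8 were higher and 12 lower, with a median of -0.044, and 12 were higher without saline replicate 7 (median 0.016). Actc1, the cardiac alpha-actin also used by immature skeletal muscle, rose by 0.72 with the block (SE 0.13, adjusted p = 0.0339), and its fit without the block had an adjusted p of 0.442. It was within the range of the other saline samples in saline replicate 7, and the difference was 0.73 without it. The call was lost with the actin ratio added to the block (0.56, adjusted p = 0.343). It was also lost without pair 2, 4, 5, 6, 7 or 8, where the blocked values of Actc1 were 0.64 to 0.72 and the adjusted p was 0.0585 to 0.114. Myf6, the myogenic factor of mature fibres, was at 0.16 (SE 0.073).

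The stress pathways that feed Gadd45a and Cdkn1a gave no call. Of 15 p53 target genes 4 were higher and 11 lower, with a median of -0.071, and the smallest p were those of the antioxidant gene Sesn1 at -0.23 (SE 0.17) and the kinase gene Plk2 at -0.25 (SE 0.20). Plk2 was at -0.15 without saline replicate 7, and Sesn1 was at -0.145 without JA16 replicate 8. Of 15 genes of ATF4 and the integrated stress response, which is known to induce Gadd45a, 9 were higher and 6 lower, with a median of 0.068. Chac1, a glutathione-degrading enzyme, was at -0.68 (SE 0.29) and Nupr1, a stress-induced nuclear protein, at -0.33 (SE 0.18; -0.23 without saline replicate 7), while Atf4 itself was at 0.096 (SE 0.079). Of 19 titin-linked genes and targets of YAP, the pathway of Ankrd1, 9 were higher and 10 lower, with a median of -0.019. The matrix gene Ccn2 was at -0.48 (SE 0.19; -0.40 without saline replicate 7) and Wwtr1, which encodes the YAP partner TAZ, at -0.30 (SE 0.12). Of the genes named here Ccn2, Nupr1 and Plk2 were highest of all 20 in saline replicate 7, at 4136, 2599 and 431. Family members and adult counterparts of the 9 genes were evenly divided, 8 higher and 8 lower of 16 (median -0.017).

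The genes most like each member across samples were ranked by Pearson correlation of log2 intensities less their group means, over 20 samples and 11200 genes. The correlations are descriptions, since all genes share the arrays and the ranking takes the highest of many. For Gadd45a these were Nap1l1 (r = 0.93) and Dcaf13 (0.93), and the correlations were 0.93 and 0.91 without saline replicate 7. Since Gadd45a differed between the array sets, each correlation was also taken on values less the group means within each array set, which gave 0.72 and 0.72 here. For Cdkn1a they were 2410022M11Rik (0.85) and Litaf (0.81), and for Mustn1 Ttc9 (0.80) and Necap2 (0.79). For Tnnt2 they were Clcn5 (0.87) and the macrophage gene Mrc1 (0.86), for Runx1 Dclk1 (0.87) and Fcgr3, an Fc receptor gene of leukocytes (0.87), and for Myl4 Cd300lb (0.85) and Adamts4 (0.84). Without saline replicate 7 these 6 correlations were 0.52, 0.54, 0.62, 0.64, 0.58 and 0.54. For Ncam1 they were Sfrp1 (0.90) and Bcat1 (0.90), and for Ankrd1 Cyth3 (0.77) and Timp1 (0.77). Without saline replicate 7 they were 0.80 and 0.73 for Ncam1, 0.69 and 0.65 for Ankrd1, 0.85 and 0.80 for Cdkn1a, and 0.79 and 0.78 for Mustn1. Centred within array sets, with saline replicate 7 included, the correlations of these other 7 genes ran from 0.75 to 0.90. When genes were ranked without that sample, only 2410022M11Rik, for Cdkn1a, stayed among the 2 most like a member.

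Among the 8 tested genes themselves, 9 of 28 pairs had a correlation over 0.5 with all samples and 2 of 28 without saline replicate 7. The pairs that depended on it included Myl4 with Tnnt2 (0.72, then 0.10) and Runx1 with Tnnt2 (0.77, then 0.23). Those over 0.5 in both cases were Ncam1 with Myl4 (0.81, then 0.51) and Mustn1 with Ankrd1 (0.71, then 0.73). Centred within array sets, Mustn1 with Ankrd1 was at 0.70 with all samples and 0.75 without saline replicate 7, while Ncam1 with Myl4 was at 0.79 and 0.185. Runx1 with Ncam1 was at 0.95 and 0.86 when centred in this way, against 0.81 and 0.49 with group means alone. Gadd45a with Cdkn1a was at -0.46 and then -0.71 with group means alone, and at -0.235 and -0.57 when centred within array sets.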

How the data were processed

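The deposited values were MAS5 intensities on a linear scale for 45101 probe sets and 20 arrays, made with MAS5 (no version) per the submitters' processing notes. All arrays had a mean of 500.0 once the lowest and highest 2% of values were left out. RNA was amplified with a NuGEN kit, per the labels' protocols. Depth has no meaning for arrays, and their number limits the precision. The 5 intensities that were not above 0 became 0.1, and log2 was taken. Symbols came from the platform annotation: 1 gene for 34945 probe sets, several for 932, none for 9160, besides 64 controls. Of the single-gene probe sets 34741 matched a RefSeq gene identifier (GRCm38.p6). JA16 was set against saline in R 4.3.3 with limma 3.58.1 (lmFit, eBayes with trend, two-sided, Benjamini-Hochberg over 11200 genes), without and with the replicate number as a block. The saline array has the lower number of each adjacent pair, so order and treatment cannot be told apart. Differently numbered samples, many of them from different array sets, had a median correlation of -0.11. All same-numbered pairs exceeded the limit of 0.1 for pairing. The script was tested on simulated data. Python 3.11.15, pandas 2.3.3, numpy 2.4.6 and matplotlib 3.10.9 were used.

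Members and lists were chosen with earlier results of these data known. Named genes were all probe sets of the members, the 2 smallest p of each list, list genes that passed in either fit, and the 2 genes most like each member; other list genes were named after their values were seen. Alternatives were the block, leaving out samples or pairs, other normalizations, filters and probe set choices, 16 added before log2, the actin ratio as a covariate, and each array set alone. The interaction with array set and the correlations centred within array sets were added after seeing the data. Adjusted p-values over 0.995 are printed as 1.0.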

Additional observations from a re-analysis of the deposited data

Results flagged for a closer look

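Each group of 10 samples was examined on each of the 27 probe sets on the log2 scale for a sample whose gap to its nearest neighbour was large against the range of the group. Of 54 groups 15 held such a sample. The limit used is meant to flag about 1 in 20 groups of normally distributed values, and that rate was not measured on these data. In 12 of the 15 it was saline replicate 7 as the highest value. These 12 come from 1 array, several share a gene and some lie below the filter, so they are not independent and are no count against chance. On brightest probe sets, saline replicate 7 stood out in this way for 4 of the 8 tested genes and for 2.82% of all tested genes. On probe sets at or above the filter and on the brightest probe set of Chrng these values were 572 for Runx1, 2904, 1601 and 178 for Ncam1, 505 for Chrng, 5448 for Myl4, 3298 and 1761 for Tnnt2, and 754 for the second probe set of Ankrd1. The brightest Ankrd1 probe set, Gadd45a, Cdkn1a and Mustn1 had no such sample. In JA16 samples, replicate 10 was far below the rest on 1 Ncam1 probe set, at 122.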

How the results depend on the processing

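No member passed in any setting, and the smallest adjusted p of a member was 0.0903. On their brightest probe sets Gadd45a, Runx1, Ncam1, Myl4, Tnnt2 and Chrng kept their direction in every setting run for them; the other probe sets of Chrng and Runx1 did not all have that sign. Cdkn1a turned to 0.0401 in replicates 1 to 6 alone and Mustn1 to -0.0016 in replicates 7 to 10 alone. Ankrd1 turned to 0.019 in replicates 1 to 6 alone. With 1 sample left out Ankrd1 ran from -0.26 to 0.098, turning without saline replicate 7 (0.098) or JA16 replicate 3 (0.013). With the block and 1 pair left out it ran from -0.19 to 0.033, turning without pair 3 (0.033) or pair 7 (0.012).

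The number of genes called over all genes was 4. It was 31 with the replicate block, 29 with quantile normalization and the block, 1 with the actin ratio added to the block, and 0 in either array set alone (limma; 1099 and 799 at an unadjusted p under 0.05). It was 2 with centred array medians, with the filter at the 75th percentile, or with all probe sets tested, and 2 to 5 with 1 sample left out. Leaving out pairs 1 to 10 in turn under the block gave 51, 34, 23, 10, 21, 11, 14, 16, 16 and 35. Of the list genes 0 were called, 1 with the block and 2 (Actc1 and Fbxo32) with quantile normalization and the block, and 0 to 2 when a pair was left out under the block. The cause was not tested. Signals near the floor limit Chrng and the dimmer probe sets of Runx1 and Ncam1.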
